A study of Mus musculus with 14 samples.

Results

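A set of 10 immediate early genes was followed in mouse neural stem cells 24 h after the cells were placed in medium with or without epidermal growth factor (EGF). They were chosen by name: Fos, Fosb, Fosl1, Fosl2, Jun, Junb, Egr1, Egr2, Ier2 and Ier3, out of 23152 genes measured. The choice was made with earlier results of these data known. Each gene's value was the median log2 level of the array probesets that name it alone, and all 10 genes lay above the limit set for dim genes. The groups were 4 in number: Cic-/- cells with EGF (n = 3), Cic-/- cells without EGF (n = 3), Cic+/+ cells with EGF (n = 4) and Cic+/+ cells without EGF (n = 4). Every culture, called a clone here after its label, was derived from a different mouse at postnatal day 4, from the subventricular zone, a niche of neural stem cells beside the lateral ventricle. The Cic-/- cells carried a conditional allele (Cicflox/flox) and the Cic+/+ cells were wild type controls. Adenovirus carrying Cre recombinase was applied in culture to remove Cic from the Cic-/- cells. Cic is a gene for a transcriptional repressor acting downstream of receptor tyrosine kinases. Clones 5, 6 and 7 were Cic-/- and clones 1 to 4 were Cic+/+, and each clone was measured with and without EGF, which gives 14 arrays. A whole culture was measured as 1 sample, so that fewer cells of a type and less RNA per cell cannot be told apart.

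Immediate early genes are transcribed within minutes of a growth factor signal, with no need for new protein, because their transcription factors are already present and are phosphorylated by the ERK pathway. FOS and JUN family proteins pair through leucine zippers to form AP-1, and EGR proteins are zinc finger factors that bind GC-rich sites. The transcripts usually decay quickly after a pulse of signal.

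Cic itself was lower in the Cic-/- cells, at 7.40 to 7.67 with EGF and 7.04 to 7.48 without on the log2 scale. Cic+/+ cells had 9.41 to 9.69 with EGF and 9.18 to 9.64 without. The Cic-/- levels still lay above the dim limit of 4.40, so the arrays show a lower Cic signal and not its absence. The source of the remaining signal was not tested. The 9 measured neural stem cell markers averaged 5.19 (Prom1) to 13.36 (Vim), with Sox2 at 11.62, and all 9 were above the dim limit of 4.40. Microglial markers averaged 4.23 to 6.11 (4 of 5 above the limit), endothelial markers 4.21 to 5.01 (2 of 4), fibroblast and pericyte markers 3.81 to 6.48 (3 of 5) and neuronal markers 6.35 to 7.47 (4 of 4). Clone 5 had a lower mean level of mitosis genes than the other clones, at 7.80 with EGF and 7.64 without. Cic-/- clones 6 and 7 had 9.02 and 8.94 with EGF, against 9.22 to 9.93 in Cic+/+ clones. Without EGF they had 9.05 and 9.22, against 9.15 to 9.19. The mitosis mean was lower with EGF than without in clones 6 and 7, and higher in clones 1 to 5. The part of these levels in the results on the immediate early genes was not tested. Array medians lay between 6.49 and 6.54, and the number of arrays limits the precision.

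The bases before the start of 4 of these genes are shown. Fos, Jun and Egr2 hold matches to the motifs searched, and the levels of Fosb moved with those of Fos. RefSeq's promoter table (mouse build GRCm38.p6) held windows for 7 of the 10 genes, and the 250 bases before the start were searched on both strands. Capitals mark the matches found. In Fos (chr12:85473640-85473889, plus strand), the letters TGACGT, the core of the cyclic AMP response element, lie 66 to 61 bases before the start, and the octamer TGAATGGA, which CIC is known to bind, lies on the reverse strand 50 to 43 bases before it. In Jun (chr4:95052223-95052472, minus strand), the letters TGACATCA, a known AP-1 site of this promoter, lie 45 to 38 bases before the start. TGACATCA was searched for as the known Jun site, so its match in Jun is not an independent finding. In Egr2 (chr10:67537619-67537868, plus strand, window 3 of 5), a CArG box, the site of serum response factor, lies 72 to 63 bases before the start. TGACGT lies on the reverse strand 56 to 51 bases before that start. Window 1 of Egr2 held no match, and window 2 held another CArG box (CCTTTTTTGG) and no TGACGT. Windows 4 and 5 overlap window 3 and hold the same matches. Fosb (chr7:19310046-19310295, minus strand) held none of the motifs searched.
Fos: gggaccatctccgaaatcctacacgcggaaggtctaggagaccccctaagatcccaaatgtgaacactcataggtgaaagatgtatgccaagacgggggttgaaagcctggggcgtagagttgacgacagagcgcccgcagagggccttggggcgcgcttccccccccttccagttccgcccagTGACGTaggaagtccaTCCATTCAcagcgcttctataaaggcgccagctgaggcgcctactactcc
Fosb: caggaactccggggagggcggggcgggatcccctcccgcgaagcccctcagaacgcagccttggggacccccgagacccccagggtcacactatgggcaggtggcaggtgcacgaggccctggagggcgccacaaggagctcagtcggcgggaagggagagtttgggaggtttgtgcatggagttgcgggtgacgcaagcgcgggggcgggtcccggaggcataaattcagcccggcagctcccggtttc
Jun: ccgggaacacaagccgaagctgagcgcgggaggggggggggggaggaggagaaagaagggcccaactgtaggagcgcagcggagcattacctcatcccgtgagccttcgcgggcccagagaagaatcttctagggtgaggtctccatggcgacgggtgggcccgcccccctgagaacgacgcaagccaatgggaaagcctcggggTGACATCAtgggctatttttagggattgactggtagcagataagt
Egr2: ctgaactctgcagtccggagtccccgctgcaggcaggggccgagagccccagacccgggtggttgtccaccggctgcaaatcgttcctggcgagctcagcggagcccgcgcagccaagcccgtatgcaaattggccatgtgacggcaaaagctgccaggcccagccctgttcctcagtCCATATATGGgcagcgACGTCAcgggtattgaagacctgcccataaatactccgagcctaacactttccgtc
Among 32851 windows of this length, 6.47% held TGACGT, 1.01% TGAATGGA, 2.93% TGACATCA and 1.47% a CArG box. The full response element TGACGTCA (1.55% of windows), the AP-1 site TGAGTCA (4.46%), the EGR site GCGTGGGCG (0.536%), the octamer TGAATGAA (1.08%) and the ETS site CCGGAAGT (2.88%) were in none of the 11 windows. Fosl2, Junb and Ier3 had no match. A match describes these letters only. Bases more than 250 before the start were not searched. The lack of a match, such as of a CArG box in Fos, therefore covers this stretch alone.

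In the fit without the clone as a block, no member passed the adjusted threshold of 0.05 in any of the 6 comparisons (limma, Benjamini-Hochberg over 17364 genes). That fit treats the arrays of a clone as independent, although they are paired, and members did pass with the block, as given below. Over both genotypes, EGF changed 3.91% of all genes at that threshold and 0 of the 10 members, while 4 members had an unadjusted p under 0.05 by limma, against 18.0% of all genes. These were Fosl2, Jun, Junb and Egr2, each higher with EGF. With the clone as a random block, 3 of the 10 members passed over both genotypes, Fosl2, Jun and Egr2, against 11.5% of all genes. In Cic+/+ cells alone 0 of 10 passed against 0.898% of genes, 4 had an unadjusted p under 0.05 by limma (Fosl2, Jun, Egr1 and Egr2) against 12.5%, and 2 passed with the block (Egr1 and Egr2) against 5.17%. In Cic-/- cells alone 0 of 10 passed against 0.190% of genes, 1 (Jun) had an unadjusted p under 0.05 by limma against 9.80%, and 0 passed with the block against 2.08%. The median EGF difference of the 10 members was 0.26 in Cic-/- cells and 0.34 in Cic+/+ cells, beside medians of 0.01 and -0.00 over all genes tested. Within clones, 5 of 10 members were higher with EGF in at least 6 of 7 clones (Fosl2, Jun, Junb, Egr2 and Ier3), against 16.5% of all genes. In all 3 Cic-/- clones 4 of 10 were higher (Fosl2, Jun, Junb and Ier3), against 18.2%, and in all 4 Cic+/+ clones 3 of 10 were (Jun, Egr1 and Egr2), against 13.8%.

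**Figure D1:**
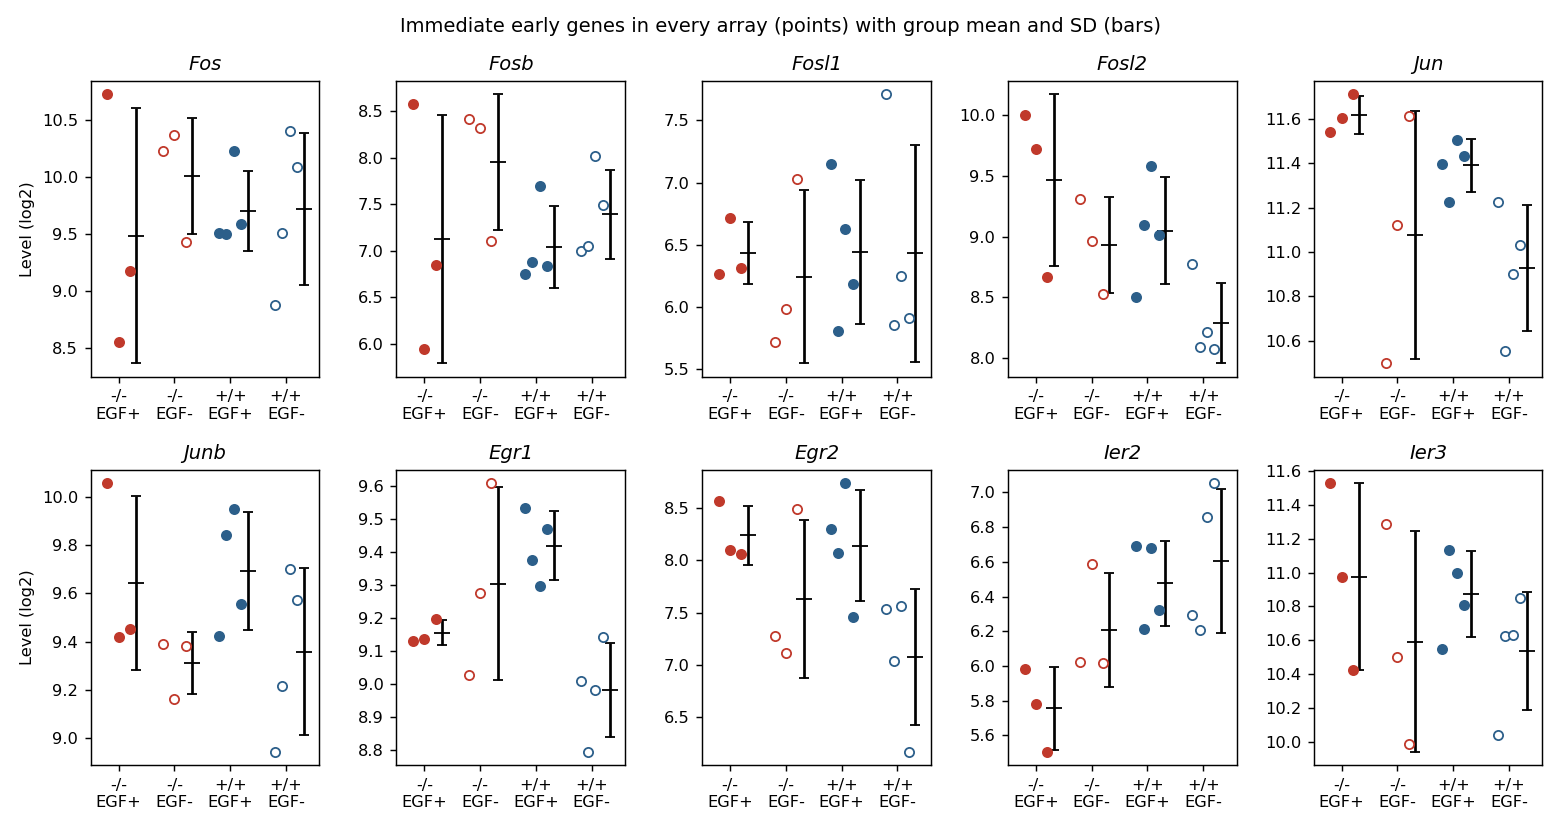
Log2 level of each of the 10 genes on every array, by group, each point 1 clone, with the group mean and SD as bars. Jun has its highest group mean in Cic-/- cells with EGF (11.62), and Fos in the same group runs across 8.55 to 10.73.

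Egr2 encodes a zinc finger factor known for its role in hindbrain patterning and myelination. Egr2 had log2 levels of 8.56, 8.09 and 8.06 in Cic-/- cells with EGF (clones 5, 6 and 7), against 7.28, 7.11 and 8.49 without EGF. In Cic+/+ cells it had 8.30, 8.06, 8.73 and 7.46 with EGF (clones 1 to 4), against 7.54, 7.04, 7.57 and 6.17 without. The groups with and without EGF overlapped in both genotypes, through clone 7 in Cic-/- cells and through clone 4 in Cic+/+ cells. The EGF difference within a clone was positive in 6 of 7 clones, at 1.29, 0.98 and -0.44 in Cic-/- and 0.76, 1.02, 1.17 and 1.29 in Cic+/+. Cic+/+ cells averaged 8.14 ± 0.53 with EGF and 7.08 ± 0.65 without (SD, n = 4 each). The change was 1.06 ± 0.36 (2.09-fold, 95% interval 0.29 to 1.83). Its limma adjusted p was 0.213, and 0.045 with the clone as a block. Here and below, ± after a change is the SE on the log2 scale. SE and intervals come from the fit without the clone as a block, also where a p-value with the block stands beside them. With the block, the SE of this change was 0.28. Over both genotypes the change was 0.84 ± 0.28 (1.78-fold, 0.24 to 1.43), with a limma adjusted p of 0.115 and of 0.0223 with the block. In Cic-/- cells it was 0.61 ± 0.42, with an interval of -0.28 to 1.50, and it was 0.27 without clone 5 and 1.13 without clone 7. The blocked call over both genotypes was lost without clone 2, 3, 5 or 6 (limma adjusted p = 0.0653, 0.0521, 0.12 and 0.0857), and that in Cic+/+ cells without clone 1, 2, 3, 4 or 5 (0.0653, 0.184, 0.158, 0.11 and 0.0524). The gene has 10 probesets, of which 7 were higher with EGF over both genotypes, in a range of -0.44 to 1.89. At the 3 with the largest change (17233998, 17233999 and 17234000) it was 1.67, 1.38 and 1.62 in Cic-/- cells and 1.78, 1.80 and 2.16 in Cic+/+ cells. On the brightest probeset (17234002) it was 0.81 in Cic-/- and 0.94 in Cic+/+ cells. Probesets 17233994 and 17234001 were lower with EGF in both genotypes.

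Egr1 encodes the related factor that is a common readout of recent ERK activity. Its levels were 9.13, 9.14 and 9.20 in Cic-/- cells with EGF, against 9.03, 9.28 and 9.61 without. In Cic+/+ cells they were 9.53, 9.38, 9.30 and 9.47 with EGF, against 9.01, 8.80, 8.98 and 9.14 without. All 4 Cic+/+ arrays with EGF lay above all 4 without, and the difference was positive in all 4 clones (0.52, 0.58, 0.32 and 0.33). The 3 Cic-/- clones gave 0.11, -0.14 and -0.41. The change in Cic+/+ cells was 0.44 ± 0.14 (1.35-fold, 0.15 to 0.73), with a limma adjusted p of 0.169, of 0.0392 with the clone as a random block and of 0.0709 as a fixed block. The random-block call was lost without clone 1, 2, 3, 4 or 6 (limma adjusted p = 0.0993, 0.213, 0.128, 0.104 and 0.0538). In Cic-/- cells the change was -0.15 ± 0.16 (-0.48 to 0.19), and 0.26 on the brightest probeset. All 5 probesets of Egr1 were higher with EGF in Cic+/+ cells (0.32 to 0.67), against 3 of 5 in Cic-/- cells.

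**Figure D2:**
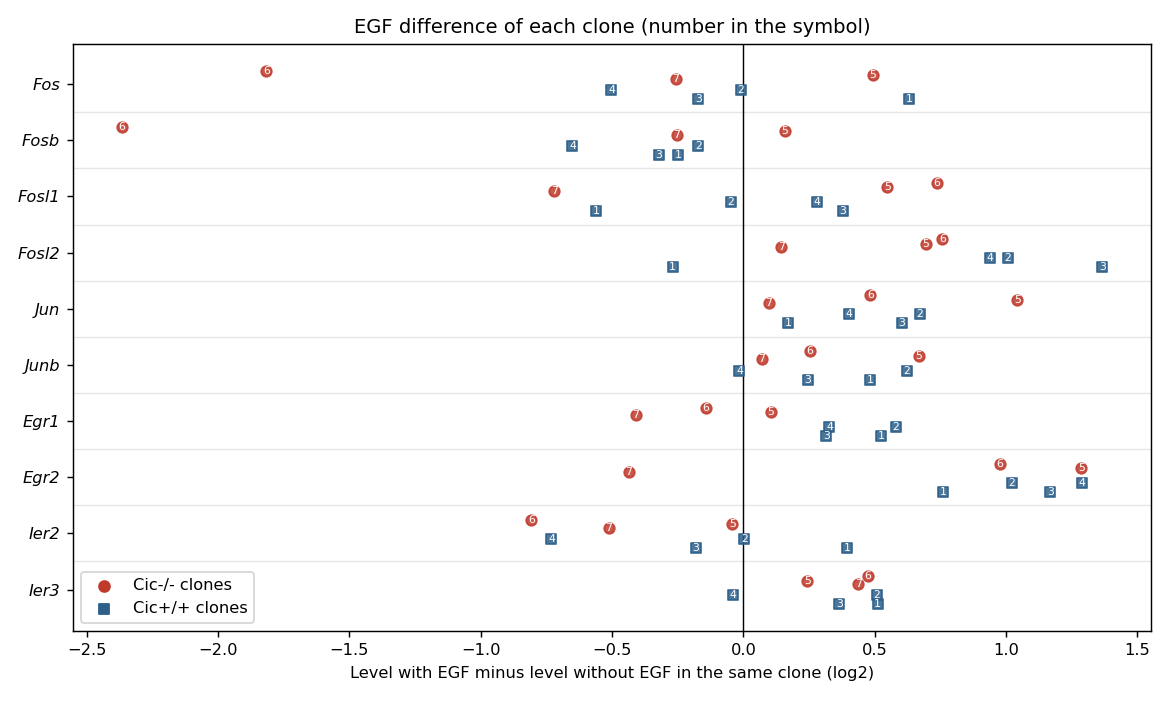
Difference of log2 level with minus without EGF within each clone, for the 10 genes, Cic-/- clones and Cic+/+ clones apart. Jun is above 0 in all 7 clones, and clone 6 gives the lowest values of Fos (-1.82) and Fosb (-2.37).

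Jun, the AP-1 subunit that JNK phosphorylates, was at 11.54, 11.60 and 11.71 in Cic-/- cells with EGF, against 10.50, 11.12 and 11.61 without. In Cic+/+ cells it was at 11.39, 11.23, 11.51 and 11.43 with EGF, against 11.22, 10.55, 10.90 and 11.03 without. The Cic+/+ groups did not overlap, at means of 11.39 ± 0.12 with EGF and 10.93 ± 0.28 without (SD, n = 4 each). The Cic-/- groups did, with clone 7 at a high level without EGF. Jun was the 1 member whose level was higher with EGF in all 7 clones, by 1.04, 0.48 and 0.10 in Cic-/- and 0.17, 0.67, 0.60 and 0.40 in Cic+/+, and 6.04% of all genes were higher in all 7. The change over both genotypes was 0.50 ± 0.16 (1.42-fold, 0.17 to 0.84), with a limma adjusted p of 0.092 and of 0.0192 with the block. In Cic-/- cells it was 0.54 ± 0.24 and in Cic+/+ cells 0.46 ± 0.20, with limma adjusted p-values of 0.453 and 0.367, and the Cic-/- value was 0.29 without clone 5. The blocked call was lost without clone 2, 3, 5 or 6 (limma adjusted p = 0.0586, 0.0689, 0.0647 and 0.0577). All 5 probesets of Jun were higher with EGF over both genotypes (0.45 to 0.52).

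Junb, a JUN family member that can restrain Jun, was at 10.06, 9.42 and 9.45 in Cic-/- cells with EGF, against 9.39, 9.16 and 9.38 without. The Cic+/+ arrays had 9.42, 9.84, 9.95 and 9.56 with EGF, against 8.94, 9.22, 9.70 and 9.57 without. Its Cic-/- groups did not overlap, by the narrow margin of 9.42 against 9.39, while the Cic+/+ groups did. The change over both genotypes was 0.33 ± 0.15 (0.01 to 0.65), with a limma adjusted p of 0.258 and of 0.0857 with the block. Of its 3 probesets 2 were higher with EGF and 1 lower (-0.41), and the mean of probesets gave 0.10 (limma adjusted p = 0.776). Junb and Ier2 were the 2 of 10 members whose Cic-/- groups with and without EGF did not overlap, against 13.0% of all genes, and Jun and Egr1 were the 2 of 10 in Cic+/+ cells, against 8.39%.

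Fosl2, a FOS family member without the long activation domain of Fos, was at 10.001, 9.72 and 8.67 in Cic-/- cells with EGF, against 9.31, 8.96 and 8.52 without. Its Cic+/+ levels were 8.50, 9.10, 9.58 and 9.01 with EGF, against 8.77, 8.09, 8.21 and 8.08 without. Clone 1 was the exception among the 7 clones, with a difference of -0.27, and the other 6 gave 0.15 to 1.37. The change over both genotypes was 0.65 ± 0.23 (1.57-fold, 0.16 to 1.13), with a limma adjusted p of 0.137 and of 0.0362 with the block. The blocked call was lost without clone 2, 3, 4, 5 or 6 (limma adjusted p = 0.111, 0.118, 0.097, 0.0892 and 0.127). In Cic-/- cells the change was 0.53 ± 0.34 and in Cic+/+ cells 0.76 ± 0.30. All 6 probesets of Fosl2 were higher with EGF over both genotypes (0.40 to 0.71).

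Fos, the founding member of the family, did not pass any test of EGF. It had 10.73, 8.55 and 9.17 in Cic-/- cells with EGF, against 10.23, 10.37 and 9.43 without, and 9.51, 9.50, 10.23 and 9.59 in Cic+/+ cells with EGF, against 8.88, 9.51, 10.40 and 10.09 without. Clone 6 held both the lowest level with EGF and a high level without, and all groups overlapped. The difference was positive in 2 of 7 clones. The change was -0.53 ± 0.49 (-1.57 to 0.52) in Cic-/- cells and -0.01 ± 0.42 (-0.92 to 0.89) in Cic+/+ cells, with limma adjusted p-values of 0.8 and 0.995. The sign of the Cic-/- value rested on clone 6: without it the change was 0.12 in Cic-/- cells, and 0.05 over both genotypes, against -0.27 with all clones. Fosb, a close paralog whose spliced form accumulates after repeated stimulation, had 8.57, 5.95 and 6.85 in Cic-/- cells with EGF, against 8.42, 8.32 and 7.11 without, and 6.75, 6.88, 7.70 and 6.84 in Cic+/+ cells with EGF, against 7.00, 7.06, 8.02 and 7.49 without. It was higher with EGF in 1 of 7 clones, clone 5. Its change over both genotypes was -0.58 ± 0.36 (-1.35 to 0.18), with a limma adjusted p of 0.425. Without clone 6 it was -0.20, and in Cic-/- cells -0.05, against -0.82 with all clones. Across the 14 arrays the levels of Fos and Fosb had a Pearson r of 0.921 (Spearman rho 0.798), with r = 0.953 after the group means were taken out and r = 0.932 over the EGF differences of the 7 clones, given as descriptions since the points share clones and arrays.

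**Figure D3:**
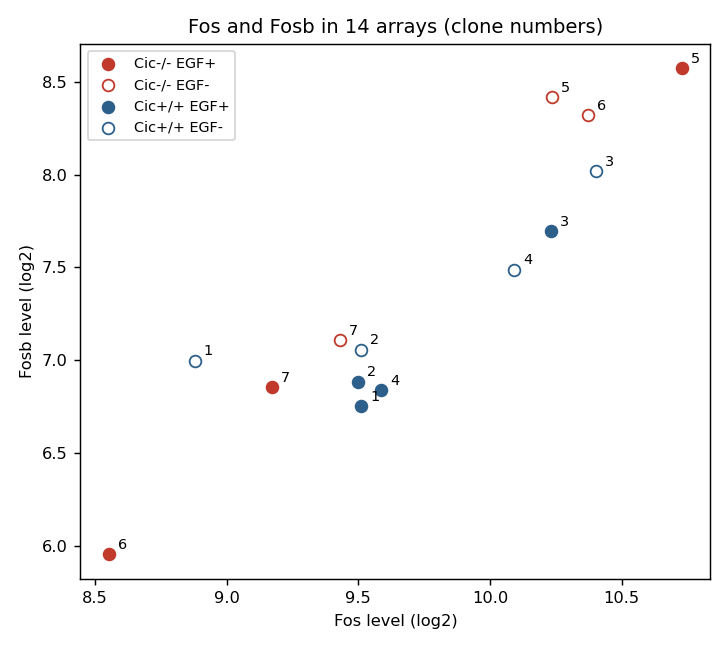
Log2 level of Fosb against that of Fos on the 14 arrays, by group. Clone 6 of Cic-/- with EGF is lowest in both (8.55 and 5.95) and clone 5 with EGF is highest in both (10.73 and 8.57).

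Fosl1, known as a target as well as a part of AP-1, had 6.27, 6.72 and 6.31 in Cic-/- cells with EGF, against 5.72, 5.98 and 7.03 without. The Cic+/+ clones had 7.15, 5.81, 6.63 and 6.19 with EGF, against 7.71, 5.86, 6.25 and 5.91 without. Clone 7 was the high Cic-/- clone without EGF and clone 1 the high Cic+/+ clone. The change over both genotypes was 0.10 ± 0.31 (-0.56 to 0.76), with a limma adjusted p of 0.909, and it was -0.04 without clone 6 and -0.02 on the brightest probeset.

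Ier2 and Ier3 are immediate early genes outside these transcription factor families, and Ier3 is known as a stress-induced survival factor. Ier3 had 11.53, 10.97 and 10.43 in Cic-/- cells with EGF, against 11.29, 10.50 and 9.99 without, and 10.55, 11.13, 11.00 and 10.81 in Cic+/+ cells with EGF, against 10.04, 10.62, 10.63 and 10.85 without. It was higher with EGF in 6 of 7 clones, all but clone 4. The change over both genotypes was 0.36 ± 0.22 (-0.10 to 0.83), with limma adjusted p-values of 0.418, of 0.157 with the random block and of 0.039 with the fixed block. Ier2 ran the other way: it had 5.98, 5.78 and 5.50 in Cic-/- cells with EGF, against 6.02, 6.59 and 6.02 without, and 6.69, 6.21, 6.68 and 6.32 in Cic+/+ cells with EGF, against 6.30, 6.21, 6.86 and 7.05 without. The difference was positive in 2 of 7 clones, with a change of -0.29 ± 0.16 (-0.64 to 0.06) over both genotypes.

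Between genotypes, Cic-/- cells did not differ from Cic+/+ cells in any member at the adjusted threshold. With EGF, 0 of 10 members passed against 0.317% of all genes, and without EGF 0 of 10 against 0.553%, and with the block the counts were also 0 and 0, against 0.363% and 0.697% of genes. A single member had an unadjusted p under 0.05 by limma in each comparison, against 10.6% of genes with EGF and 10.8% without. With EGF this was Ier2, lower in Cic-/- cells, with a log2 change of -0.72 ± 0.23 (-1.22 to -0.23), with a limma adjusted p of 0.255. All 3 Cic-/- arrays lay below all 4 Cic+/+ arrays. The change of Ier2 was -0.24 on the brightest probeset (limma adjusted p = 0.76). Without EGF it was Egr1, at 0.32 ± 0.15 (0.01 to 0.64), with a limma adjusted p of 0.449, and it was 0.02 on the brightest probeset (limma adjusted p = 0.981) and 0.17 without clone 7. With EGF, 3 of 10 members had groups that did not overlap, Jun higher and Egr1 and Ier2 lower in Cic-/- cells, against 11.7% of all genes. The direction of Jun depended on the probeset: 2 of its 5 probesets were higher and 3 lower in Cic-/- cells (-0.07 to 0.58), and the change was 0.23 for their median and -0.07 for the brightest. Without EGF, 0 of 10 did, against 9.38%. For the other members the intervals were wide: Fos was -0.22 (-1.20 to 0.75) with EGF and 0.29 (-0.69 to 1.27) without, and Egr2 was 0.10 (-0.74 to 0.93) and 0.55 (-0.29 to 1.39). With EGF, the value of Fos was 0.24 without clone 6, and that of Egr2 was -0.13 without clone 4 and -0.06 without clone 5.

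The difference between genotypes in the EGF difference itself, Cic-/- minus Cic+/+, passed for 0 of 10 members, against 0.00576% of all genes (limma), and for 0 of 10 with the block, against 0.0403%. Egr1 was the 1 member with an unadjusted p under 0.05, at 0.0134 by limma, against 2.86% of genes. The difference for Egr1 was -0.59 ± 0.21 (-1.03 to -0.14), with a limma adjusted p of 1, of 0.494 with the random block and of 0.615 with the fixed block. The EGF differences of Egr1 were 0.11, -0.14 and -0.41 in Cic-/- clones, against 0.52, 0.58, 0.32 and 0.33 in Cic+/+ clones. The share of all genes with clones apart in this way was not counted. For Egr1, 0 of 5 probesets had a positive difference between genotypes, with -0.26 on the brightest. Fos, Junb and Ier2 also had 0 probesets with a positive difference. The 9 members other than Egr1 gave values between -0.51 and 0.18.

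**Figure D4:**
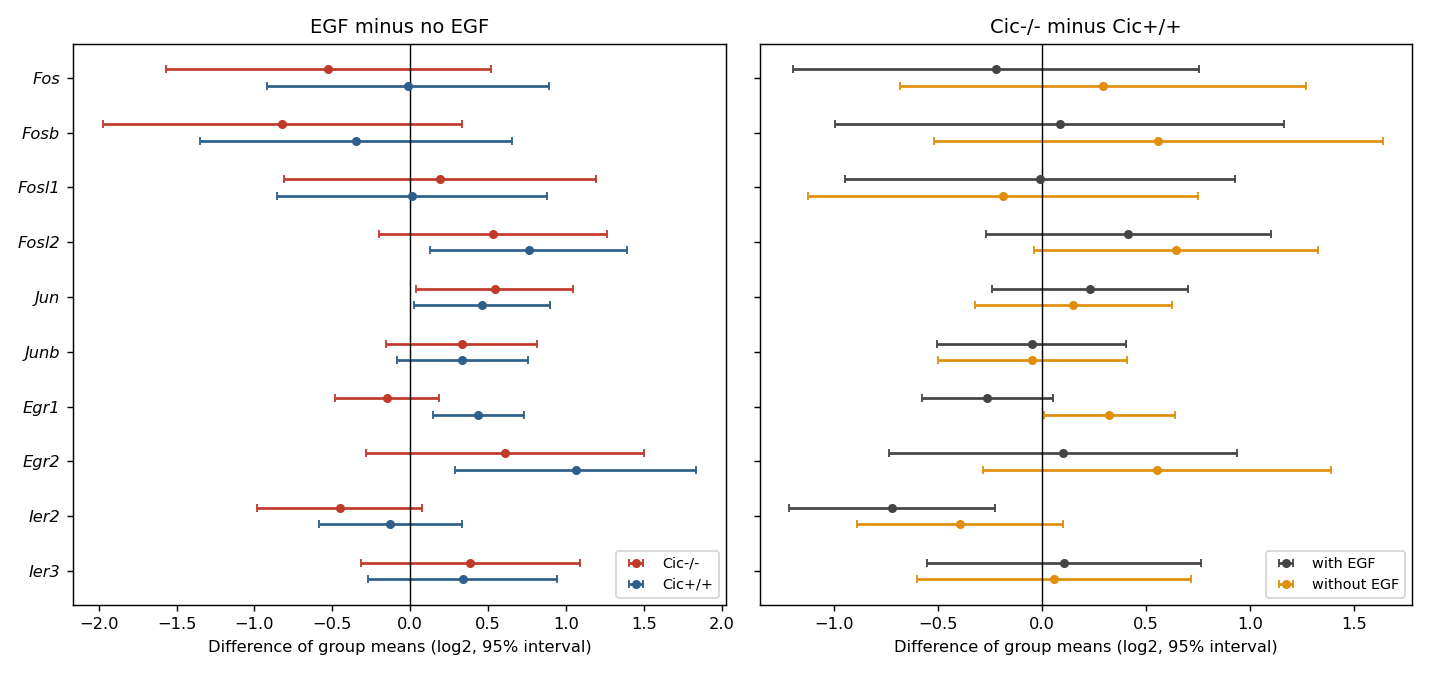
Log2 change of the 10 genes with 95% intervals in the EGF comparisons and the comparisons between genotypes, from the fit without the clone as a block. The interval of Egr2 for EGF in Cic+/+ cells spans 0.29 to 1.83 and that of Fos in Cic-/- cells -1.57 to 0.52.

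The members differed in how much clones of one group varied. The residual SD of Fosb (0.77), Fos (0.69), Fosl1 (0.66) and Egr2 (0.58) lay at percentiles 98.2, 97, 96.5 and 94.6 of all genes tested, whose median was 0.26. That of Egr1 (0.16) lay at percentile 12.9. Jun (0.30) and Junb (0.29) lay at percentiles 62.4 and 57.5. The SD of the EGF difference over clones was 0.84 for Fosb and 0.81 for Fos, and 0.20 for Ier3, at percentile 19.

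**Figure D5:**
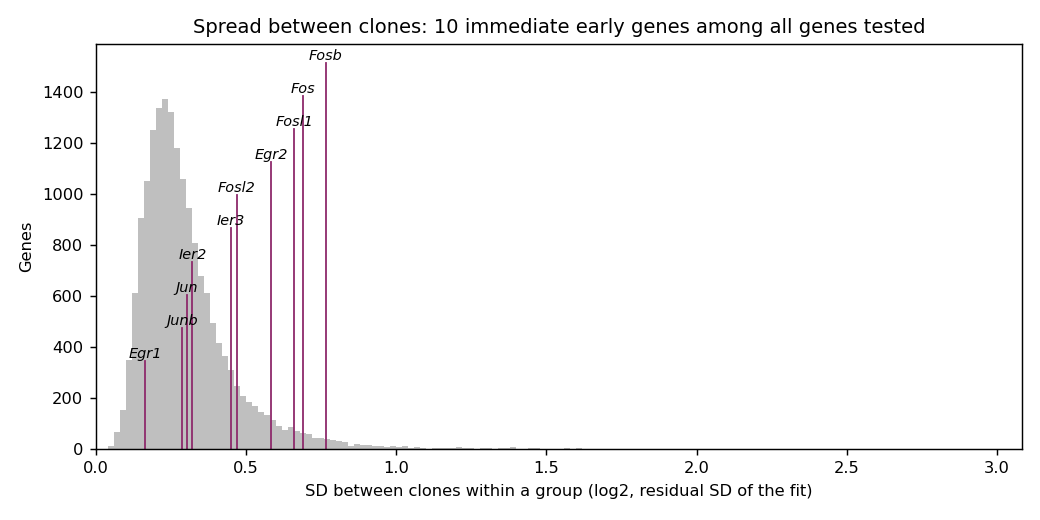
Residual SD of log2 level within groups over all 17364 genes tested, with the 10 genes marked. Fosb (0.77) and Fos (0.69) lie in the far right tail and Egr1 (0.16) on the left side.

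The genes whose levels most resembled those of Egr2 and Fosl2, the members with the largest range of group means (1.16 and 1.18), were found by Pearson r over 14 arrays among 15251 named genes. For Egr2 they were P2rx7 (0.93), Igfbpl1 (0.927), Ptprv (0.91), Csrp2 (0.879) and Synj2 (0.876). For Fosl2 they were Rtcb (0.861), Insig2 (0.859), Nr5a2 (0.858), Klf4 (0.854) and Lama4 (0.847). These are descriptions.

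Other genes of the same response were counted over both genotypes, where the median change of all genes was 0.00. Of 13 other immediate early transcription factors tested, 1 rose with EGF (3.91% of all genes passed), and 5 with the block (11.5%), beside a median change of 0.22. Egr3, a zinc finger factor related to Egr1 and Egr2, rose by 1.02 ± 0.20, with a limma adjusted p of 0.0125. It was higher in 7 of 7 clones (0.18 to 1.66). The call was lost without clone 2, 3, 5 or 6 (limma adjusted p = 0.051, 0.0535, 0.0509 and 0.1) and on the brightest probeset, where the change was 0.65 (adjusted p = 0.113). Klf10 and Myc, both growth factor responsive, gave 0.78 ± 0.21 and 0.54 ± 0.16. Their limma adjusted p-values were 0.0535 and 0.0777, and 0.0175 and 0.0143 with the block. The block calls of Klf10 and Myc were not checked with clones left out or with other probeset rules. Of 9 other AP-1 and related genes, 0 passed either fit, against 3.91% and 11.5% of all genes, with 1 at an unadjusted p under 0.05 by limma, against 18.0%, and Jund and Atf3 gave -0.02 ± 0.29 and 0.38 ± 0.26.

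Of 18 immediate early effectors, 2 rose, against 3.91% of all genes, and 3 with the block, near the 11.5% of all genes. Plk2, a kinase of the polo family, rose by 1.11 ± 0.17 (limma adjusted p = 0.00296), in 7 of 7 clones (0.71 to 1.80). Arc, a cytoskeletal protein of activated neurons, rose by 1.24 ± 0.24 (limma adjusted p = 0.012), in 7 of 7 clones (0.33 to 2.56). The call of Arc was lost without clone 3 or 6 (limma adjusted p = 0.0518 and 0.0952) and on the brightest probeset, where the change was 0.18 (adjusted p = 0.443). Of 10 regulators upstream of these genes, 1 rose, against 3.91% of all genes, and 1 with the block, near the 11.5% of all genes. Nab2, a corepressor that EGR factors induce and that binds them, had 9.50, 9.62 and 9.34 in Cic-/- cells with EGF, against 8.60, 8.80 and 9.20 without, and 9.62, 10.03, 9.80 and 9.79 in Cic+/+ cells with EGF, against 9.08, 8.68, 8.50 and 8.38 without. It rose by 0.89 ± 0.13 over both genotypes (limma adjusted p = 0.00268) and by 1.15 ± 0.17 in Cic+/+ cells (limma adjusted p = 0.0063), and the Cic+/+ call was lost without clone 2, 3 or 4 (0.0945, 0.0741 and 0.0702). In Cic-/- cells its change was 0.62 ± 0.20, with a limma adjusted p of 0.274, and the difference between genotypes, -0.53 ± 0.26, had an adjusted p of 1. Srf and Nab1 gave 0.22 ± 0.12 and 0.62 ± 0.24 over both genotypes.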

How the data were processed

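Total RNA of 7 clones, each with and without EGF, was measured on 14 Affymetrix arrays. The values deposited by the authors are log2 probeset levels, made with RMA per the submitters' processing notes. Of 269751 probesets, 233753 name 1 gene, 5106 several and 30892 none. A gene's value is the median of the probesets naming it alone. Symbols were updated through RefSeq (2184 of 23152). The 5788 genes with mean levels under 4.40, the lowest 25%, were left out, and 17364 were tested.

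Group means over all 14 arrays were fitted with limma 3.58.1 in R 4.3.3, with Benjamini-Hochberg adjustment at 0.05, and the procedure was tested on simulated data. Cultures came from individual animals per the labels, so arrays of a clone are paired. The residual correlation of a clone's arrays was 0.156 to 0.616, above that with any other clone of the same genotype. For clone 6 the margin was narrow, at 0.156 against 0.12. Because group means were taken out, correlations between different clones are pushed down. Fits with the clone as a random block (correlation 0.348) or fixed block were alternatives, beside the mean or brightest probeset, other dim limits, a trended prior, centring, quantile normalization and leaving out each clone. All 10 members are named. From each further list, up to 4 passing genes are named, with up to 2 others where fewer than 2 passed, and the 5 genes most like each of the 2 members with the largest range of group means. The members and lists were chosen with earlier results of these data known.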

Additional observations from a re-analysis of the deposited data

Results flagged for a closer look

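In Cic+/+ cells with EGF, clone 3 stood apart from the other 3 clones in Fos, at 10.23 against 9.50 to 9.59, and in Fosb, at 7.70 against 6.75 to 6.88 on the log2 scale. Its gap to the nearest clone, as a share of the group's range, was 0.879 for Fos and 0.858 for Fosb, above Dixon's 95% critical value. These were 2 of 30 groups of 4 values examined, chance alone passes that value in some of 30, and the pair is not independent since Fos and Fosb moved together across the arrays.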

How the results depend on the processing

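In the main fit, without the clone as a block, the count of members called was 0 in each comparison. The count stayed 0 under the alternatives run, apart from 2 EGF comparisons. Over both genotypes it was 1 with the mean of probesets (Egr2), 3 with the clone as a random block, 4 with the clone as a fixed block (Fosl2, Jun, Egr2 and Ier3) and, with no block, 0 to 2 when 1 clone was left out, with 2 (Jun and Egr2) without clone 7. In Cic+/+ cells it was 2 with the random block, 1 with the fixed block (Egr2) and, with no block, 0 when 1 clone was left out. With the random block and 1 clone left out, chosen after seeing the data, it was 0 to 3 over both genotypes and 0 to 2 in Cic+/+ cells, where Fosl2 passed without clone 1 (limma adjusted p = 0.0167). Over all genes, EGF in Cic-/- cells gave 33 calls, against 70 with the mean of probesets, 51 with the stricter dim limit, 50 with a trended prior, 50 with centring, 59 with quantile normalization, 361 and 519 with the random and fixed block, and 0 to 68 with 1 clone left out. In Cic+/+ cells it gave 156, against 256 with the mean, 897 and 969 with the blocks, and 17 to 217 with 1 clone left out. Over both it gave 679, against 2003 and 2099 with the blocks, and 142 to 788. Between genotypes there were 55 calls with EGF (19 to 60 with 1 clone left out) and 96 without (53 to 125, and 170 with the mean of probesets). The difference of EGF differences gave 1 call, against 2 with the mean, 0 with the brightest probeset, 0 with the stricter limit, 7 and 3 with the blocks, and 1 to 3. The cause was not tested. Of 940 member values, 58 changed sign, in 27 of 60 changes, none with an unadjusted p under 0.05. Hmga2, Egr3 and Arc lost their calls on the brightest probeset. Clone numbers limit what can be seen.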

Other observations

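Further lists of the same pathway were counted over both genotypes. Of 9 AP-1 associated targets tested, 1 rose with EGF, against 3.91% of all genes, and 4 with the clone as a block, against 11.5%, beside a median change of 0.64. Hmga2, an architectural chromatin protein, averaged 7.06 with EGF and 5.87 without in Cic-/- cells, and 6.75 with EGF and 5.64 without in Cic+/+ cells. It rose by 1.15 ± 0.26 (limma adjusted p = 0.0239) in 7 of 7 clones (0.48 to 1.76), and the call was lost without clone 2, 5 or 6 (adjusted p = 0.108, 0.0757 and 0.141) and on the brightest probeset (0.68, adjusted p = 0.0929). Timp1, an inhibitor of metalloproteinases, gave 2.14 ± 0.62 and Ccnd1, which encodes cyclin D, 1.10 ± 0.29. Their limma adjusted p-values were 0.0731 and 0.0505, and 0.00931 and 0.00632 with the block. The block calls of Timp1 and Ccnd1 were not checked with clones left out or with other probeset rules.

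Of 13 ERK and JNK pathway kinases measured, 0 passed for EGF over both genotypes by limma in either fit, against 3.91% and 11.5% of all genes, with 3 at an unadjusted p under 0.05, close to the 18.0% of all genes. In another comparison, Cic-/- against Cic+/+ cells without EGF, Rps6ka1, a kinase that ERK activates, was at -0.99 ± 0.23. Its limma adjusted p was 0.0744, and 0.048 with the block, where 0.697% of all genes passed. That call was not checked with clones left out or with other probeset rules. Of 6 ERK feedback phosphatases, 0 passed by limma in either fit, with 2 at an unadjusted p under 0.05, against 18.0% of all genes, and all 6 had positive values over both genotypes, as had 50.9% of all genes. Dusp6 gave 0.64 ± 0.26 (limma adjusted p = 0.202) and Dusp4 gave 0.49 ± 0.24 (limma adjusted p = 0.312).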
